A study of Papio anubis and Macaca mulatta with 6 samples.

Results

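The nuclear-encoded subunits of the oxidative phosphorylation complexes were examined across germ and somatic cell types of the prepubertal testis, in baboon and rhesus monkey separately. Members were all gene symbols beginning with NDUFA, NDUFB, NDUFC, NDUFS, NDUFV, SDHA to SDHD, UQCR, COX4 to COX8 or ATP5, without the assembly factors NDUFAF and SDHAF. The rule found 62 of 34178 genes in the baboon and 74 of 21356 genes in the rhesus monkey. The 74 rhesus entries carried 73 symbols, since SDHD was listed under 2 identifiers, ENSMMUG00000015247 and ENSMMUG00000056023. By complex, the baboon list held 36 subunits of complex I, 4 of complex II, 4 of complex IV and 18 of complex V. The rhesus list held 30 subunits of complex I, 5 entries of complex II, 6 subunits of complex III, 18 of complex IV and 15 of complex V. NDUFA4 and NDUFA4L2 were counted with complex IV, in which the NDUFA4 protein sits. The lists shared 51 symbols, while 11 were found in the baboon alone and 22 in the rhesus monkey alone. Of the COX symbols only COX5A and COX8A were found in the baboon, and no UQCR symbol was, so complex III and most of complex IV were not analysed here in that species.

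Unselected testis cells of 2 immature baboons and 2 immature rhesus monkeys had been profiled with the 10x Genomics 3′ assay in 6 libraries. The study's text names no treatment of the animals and states that their euthanasia served another purpose. A pair of libraries came from baboon 1 (called 1A and 1B here) and another from rhesus 2 (2A and 2B), whereas baboon 2 and rhesus 1 gave a single library. The study's text and the description that accompanies the files give the pairs of ages to opposite species, so that no age was assigned. The ages differ within each pair, and 1 pair is a newborn and an older animal. Age and animal therefore cannot be told apart in either species. Chemistry version 3 was used for baboon 2 and version 2 for the other 5 libraries, so that animal and chemistry cannot be told apart in the baboon. The tissue was digested in steps with a wash that removes interstitial cells, and the shares of cell types are therefore not those of the tissue. The assay counts unique molecular identifiers (UMIs), each marking 1 captured transcript, and levels are given as UMIs of a gene per 1000000 UMIs of a class in an animal (CPM).

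Oxidative phosphorylation passes electrons from NADH (complex I) and succinate (complex II) through ubiquinone to complex III, cytochrome c and complex IV, where oxygen is reduced. The proton gradient built on the way drives ATP synthase (complex V). Most subunits are encoded in the nucleus and a few in the mitochondrial genome, none of whose genes is among the listed genes here. Several subunits of complex IV have isoforms that differ between tissues, some of them known from testis, muscle or cells under low oxygen. In the seminiferous tubule, Sertoli cells are known for releasing lactate, which germ cells take up.

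The libraries held 16875294 to 49803025 UMIs, and 23049 baboon cells and 26443 rhesus cells were called, with a median of 1445 to 2744 UMIs per cell. Libraries of a species shared 1 to 123 cell barcodes. Marked doublets, which were kept, made up 4.46% to 8.91% of a library's cells. Clusters were named from marker lists as germ-, Sertoli-, Leydig-, stroma-, peritubular myoid-, pericyte-, endothelial- and macrophage-like, with no Leydig- or peritubular myoid-like cluster in the baboon. Germ-like cells numbered 146 and 156 in the baboons and 452 and 74 in the rhesus monkeys. The germ cell markers summed to 2415 and 2104 CPM in them in the baboon and to at most 188 CPM in any other class, and to 1821 and 1478 CPM against at most 98.1 CPM in the rhesus monkey. The list of each other class was likewise higher in that class than in any other, with 5 or more of its markers found in each animal. Lists of other cells were also present in some classes. The lymphoid list reached 3377 CPM in the endothelial-like cells of rhesus 1 (0.930 in rhesus 2), above the endothelial list at 2311 CPM there. In the macrophage-like cells of the baboons the lymphoid list reached 4116 and 3139 CPM. The marker list of peritubular myoid cells reached 3695 CPM in the pericyte-like cells of baboon 1, and the erythroid list 2118 CPM in the Sertoli-like cells of rhesus 2. In the baboon the Sertoli list was at 1074 and 2713 CPM in germ-like and 2247 and 867 CPM in stroma-like cells. Its level in Sertoli-like cells was 7938.5 and 8780 CPM. The stroma list was at 4440 and 2393 CPM in rhesus pericyte-like cells. What part such other lists had in the results below was not tested.

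Taken as a share of all UMIs, the subunits were high in germ-like and Sertoli-like cells of both species and low in stroma-like cells, joined by Leydig-like cells in the rhesus monkey. In the baboon they made up 1.93% of the UMIs of germ-like cells in either animal (mean 1.93% ± 0.00092, SD, n = 2 animals). Sertoli-like cells followed with 1.64% and 1.63% (1.63% ± 0.0063), then pericyte-like cells with 1.52% and 1.51% (1.52% ± 0.0053). Single Sertoli-like clusters ranged more widely. Cluster 3 was the highest with 1.99% and 1.76%, above germ-like cells in baboon 1. Cluster 1 was the lowest with 1.39% and 1.197%, between pericyte-like and stroma-like cells of the same animal. The order of the classes thus holds for the pooled Sertoli-like cells and not for each of their clusters. Endothelial-like cells (1.43% and 1.37%) and macrophage-like cells (1.33% and 1.45%) overlapped. Stroma-like cells were below every other class in both animals, with 1.27% and 1.16% (1.21% ± 0.080). Exact 95% binomial intervals, which cover counting error only, ran from 1.25% to 1.28% and from 1.15% to 1.17% there. Complexes I and V each followed the order of these 3 classes. From germ-like over Sertoli-like to stroma-like cells, complex I went from 1.03% over 0.892% to 0.686% and complex V from 0.755% over 0.643% to 0.444%. The depth per cell fell in the same order in the baboon, with a median of 5900.5 and 7036.5 UMIs in germ-like, 1980.5 and 4166 in Sertoli-like and 1251.5 and 1700 in stroma-like cells, and its part in the order was not tested.

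Rhesus Sertoli-like cells took 2.35% and 2.51% of their UMIs from the subunits (2.43% ± 0.12, SD, n = 2 animals), and rhesus germ-like cells 2.61% and 2.23% (2.42% ± 0.27). Both classes overlapped with peritubular myoid-like cells (2.52% and 2.01%), and germ-like cells with pericyte-like cells (2.15% and 2.27%), whose animals were both below those of Sertoli-like cells. The single subunit gene COX4I2 was at 2038 and 5945 CPM in pericyte-like cells, against 103 and 133 CPM in germ-like cells. The part of COX4I2 in the overlap of these 2 classes was not tested. Of the Sertoli-like clusters, cluster 1 held 2.60% and 2.82%, and cluster 3 held 2.06% and 2.33%. Macrophage-like cells held 2.01% and 1.90%. Leydig-like (1.74% and 1.64%), stroma-like (1.82% and 1.51%) and endothelial-like cells (2.01% and 1.55%) had the lowest means and overlapped with one another. Rhesus 1 was above rhesus 2 in 6 of the 8 classes and below it in Sertoli-like and pericyte-like cells. Median depth did not differ in the way seen in the baboon, with 1634 and 1657.5 UMIs in germ-like, 1597 and 1681 in Sertoli-like and 1503 and 1346 in stroma-like cells. Mean depth, however, fell from germ-like over Sertoli-like to stroma-like cells in both animals. Germ-like cells held 1307227 UMIs in 452 cells and 548812 in 74. Sertoli-like cells held 8701376 in 4085 and 8043237 in 4126. Stroma-like cells held 7965792 in 4970 and 12212144 in 8570. The part of depth in the rhesus shares was not tested. The percentages of the species were not compared, because their gene lists differ. Leaving out the ribosomal protein genes, which took 15.4% to 34.4% of the UMIs of a class, raised every share, and germ-like minus stroma-like then came to 0.838 percentage points in the baboon, against 0.713 with them. Free RNA, taken from near-empty droplets, held 1.57% to 2.02% of its UMIs in the subunits in the baboon and 2.20% to 2.34% in the rhesus monkey. In every library this was above the share of the stroma-like cells, and its part in the order of the classes was not tested.

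**Figure D1:**
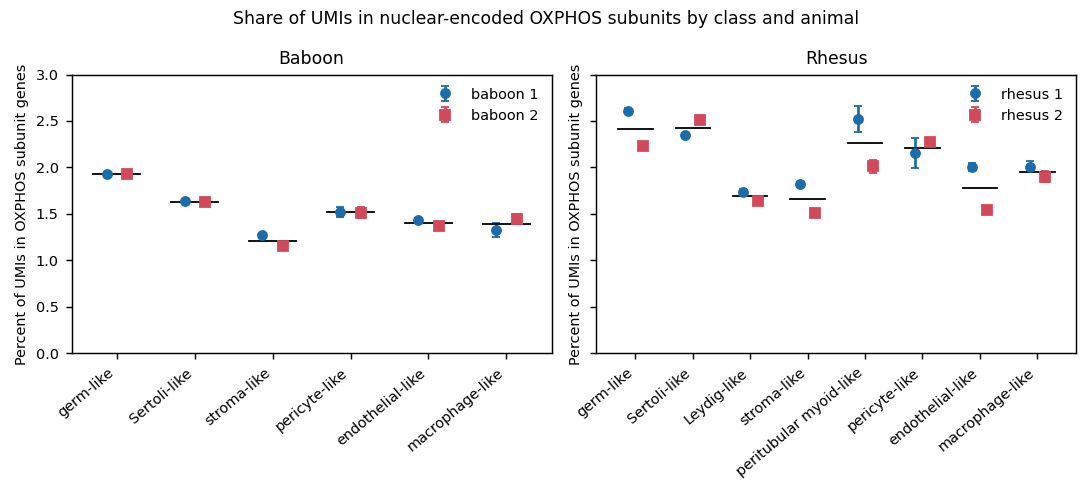
Percent of all UMIs that fell in the subunit genes, for each class of cells (x axis) and animal (circles, animal 1; squares, animal 2), in the baboon (left) and the rhesus monkey (right); bars on the points are exact 95% binomial intervals and black lines the mean of the animals. In the baboon, germ-like cells sit at 1.93% in both animals and stroma-like cells lowest at 1.27% and 1.16%, while in the rhesus monkey the animals of most classes overlap with those of their neighbours.

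Within the module, some members differed far more between classes than the shares did. Of the 59 baboon members with a mean of at least 10 CPM over the classes, the median ratio of the highest to the lowest class mean was 2.02, with 28 members under 2-fold and 3 at 4-fold or more. These 3 were NDUFA4L2, COX5A and NDUFV2. Of the rhesus members, 69 reached that level, with a median ratio of 2.38, 17 members under 2-fold and 6 at 4-fold or more, namely COX4I2, NDUFS1, COX5A, both SDHD entries and NDUFA4. NDUFS1 and both SDHD entries were highest in pericyte-like cells, where rhesus 1 had only 4, 5 and 2 UMIs of them, so these ratios rest on few counts. COX8C, with 0 UMIs in 3 classes, had no ratio. Germ-like cells were the highest class for 32 of the 59 baboon members and 28 of the 69 rhesus members, and the lowest for 5 and 13. Stroma-like cells were the lowest for 22 baboon members, and Leydig-like cells for 20 rhesus members. The same counts were not made over all genes, so they are not shown to be particular to the subunits. The evenest member of the baboon was ATP5MC3, a c-ring subunit of ATP synthase (ratio 1.15), and that of the rhesus monkey was UQCRH, the hinge protein of complex III (1.30). UMI counts were not scaled to transcript length, so levels of different genes are not comparable as such. With that limit, the members with the most UMIs were ATP5F1E, the epsilon subunit of ATP synthase (mean over classes 1529 CPM), ATP5MF (642 CPM) and ATP5MPL (570 CPM) in the baboon, and ATP5F1E (1151 CPM), COX6C (996 CPM) and COX4I1 (993 CPM) in the rhesus monkey.

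Each gene was tested with edgeR on UMIs summed per animal and class, with the animal as a block, p-values adjusted over all genes and a threshold of 0.05. Of the members, 60 of 62 in the baboon and 69 of 74 in the rhesus monkey passed the filter on low counts. The others were ATP5C1 (1 UMI) and SDHD (554 UMIs) in the baboon and SDHC (33), COX7A2L (9), COX6A2 (66), COX6B2 (34) and NDUFA4L2 (0 UMIs) in the rhesus monkey. Baboon ATP5C1, at chr7:52510951-52511463 of Panubis1.0, stood beside ATP5F1C, for which ATP5C1 is the older symbol and whose rhesus entry still bears it. A member that passed the filter only through the class in which it is high had to differ, which applies to COX8C and NDUFA4L2. Calls of both genes, higher or lower, are included in the counts below and add no support to them. The p-values rest on 2 animals per species. 

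Germ-like cells, which in the immature testis are spermatogonia and their precursors, were compared with the mean of the somatic classes. COX5A, a matrix-side subunit of complex IV at chr7:113757774-113777380 of Panubis1.0 and chr7:51964771-51983909 of Mmul_10, stood out in both species. In the baboon it was at 526 and 366 CPM in germ-like cells, 177 and 136 in Sertoli-like, 175 and 130 in endothelial-like, 257 and 150 in macrophage-like, 130 and 84.5 in pericyte-like and 100 and 59.8 CPM in stroma-like cells. Rhesus levels were 685 and 499 CPM in germ-like, 208 and 222 in Sertoli-like, 129 and 76.7 in stroma-like and 126 and 99.4 CPM in Leydig-like cells, and at most 255 CPM in any somatic class. In either species each germ-like value was above each somatic one. The level in germ-like cells was 2.97 and 2.68 times that in Sertoli-like cells in the baboons and 3.29 and 2.25 times in the rhesus monkeys. The fitted log2 difference was 1.54 (SE 0.14, adjusted p = 4e-07) in the baboon and 1.62 (SE 0.24, adjusted p = 1.7e-05) in the rhesus monkey.

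In all, 19 of 60 baboon members were higher in germ-like cells and 9 were lower, against 30.1% and 14.7% of the 12556 genes tested. Among the rhesus members, 12 of 69 were higher and 15 lower, against 24.2% and 21.4% of 9508 genes. As a group the filtered subunits thus lay near the background. Their median log2 difference was 0.25 in the baboon, where that of all genes was 0.27 and 29 of 60 members were above it, and 0.05 in the rhesus monkey, where that of all genes was -0.00187 and 38 of 69 were above. The zero point of the rhesus values depended on the scaling, since the median of all genes rose by 0.317 with the size factors of DESeq2 and by 0.356 without the ribosomal protein genes. The share of higher among all calls moved from 53.1% (46.9% lower) to 67.7% (32.3%) and 69.5% (30.5%), and 24 and 26 members were then called higher. Measured from the median of all genes, the median of the members stood at 0.06 at first and at 0.04 and 0.06 under these scalings. Without the filter on low counts, which brings in many genes with few UMIs, it stood at -0.33 in the rhesus monkey (19 of 73 members above the median of all genes) and at -0.64 in the baboon (8 of 62).

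Complex I, the largest, had 13 of its 36 baboon members higher and 4 lower, and 8 of its 30 rhesus members higher and 4 lower, which is near the 30.1% and 24.2% of all genes that were higher. NDUFA12, an accessory subunit next to the iron-sulfur arm, was at 370 and 350 CPM in baboon germ-like cells and at most 169 in any somatic class (log2 difference 1.19, adjusted p = 2.8e-05). Rhesus germ-like cells held 477 and 343 CPM, with 75.4 to 304 CPM in the somatic classes (1.09, adjusted p = 0.00018). The ranges did not overlap in either species. NDUFV2, an iron-sulfur subunit of the arm that takes up NADH, was higher by 1.23 in the baboon (236 and 255 CPM against 41.2 to 156) and by 0.85 in the rhesus monkey. NDUFA9 was higher by 1.30 and 0.60, NDUFS4 by 0.85 and 0.77, NDUFS6 by 0.65 and 0.82, NDUFB5 by 0.74 and 0.55, and NDUFAB1, the mitochondrial acyl carrier protein, by 0.61 and 0.64. NDUFB3 was higher in the rhesus monkey (0.89, adjusted p = 0.041), a call lost without the marked doublets.

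Other subunits of complex I went the other way. NDUFA11, an accessory subunit of the membrane arm, was at 202 and 247 CPM in baboon germ-like cells against 298 to 447 CPM in the somatic classes, and at 133 and 96.6 CPM against 145 to 413 in the rhesus monkey. The log2 differences were -0.98 (adjusted p = 0.00016) and -1.60 (adjusted p = 0.00014), and none of the 4 animals was above -0.94. NDUFB8, also of the membrane arm, was lower in both species (-0.64 and -0.76). Of the core subunits, NDUFV1, which binds NADH, was higher in the baboon (0.70, adjusted p = 0.0099) and reached 0.51 in the rhesus monkey, where adjusted p was 0.052. NDUFS1, another core subunit, did not pass in either species (0.53 and 0.45).

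Complex II, which links the chain to the citric acid cycle, was split in the baboon. SDHB, its iron-sulfur subunit, was higher (0.91, adjusted p = 0.0021), at 148 and 127 CPM against 22.5 to 85.2 CPM in somatic classes. SDHC, a membrane anchor, was lower (-0.67, adjusted p = 0.010). The flavoprotein SDHA had only 0 to 16.2 CPM in any baboon class and did not pass (-1.10, adjusted p = 0.27). Whether the baboon gene model of SDHA catches its reads was not tested. Rhesus SDHA was at 136 and 144 CPM (0.11) and SDHB at 125 and 129 CPM (0.26), and neither passed. Both entries of SDHD, the other anchor, were lower there, ENSMMUG00000015247 on chromosome 14 (-1.59) and ENSMMUG00000056023 on chromosome 13 (-1.65). Reads of such near copies can be split by the counting, so the level of either is uncertain.

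Among the 6 subunits of complex III in the rhesus monkey, UQCRC1, a core protein, was higher in germ-like cells (306 and 281 CPM against 76.4 to 196, log2 difference 0.78, adjusted p = 0.0098). The Rieske protein UQCRFS1 was at 233 and 266 CPM and did not pass (0.30, adjusted p = 0.26). In complex IV, 2 of 14 tested rhesus members were higher and 4 lower. COX7B was at 290 and 202 CPM in germ-like cells against 305 to 857 CPM elsewhere (-1.50, adjusted p = 8.6e-05). COX7A1, the isoform of subunit 7A known from muscle (-1.45), and COX6B1 (-0.75) were lower as well, while COX7A2 (-0.47), COX6A1 (0.19) and COX4I1 (0.05) did not pass.

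In complex V, the alpha subunit ATP5F1A was at 821 and 471 CPM in baboon germ-like cells against 152 to 414 CPM in somatic classes, and at 842 and 993 CPM against 256 to 681 in the rhesus monkey. It was higher by 1.10 (adjusted p = 1.5e-05) and by 0.90 (adjusted p = 0.0033). Its catalytic partner, the beta subunit ATP5F1B, did not pass, at -0.12 and 0.05. The central stalk was split. The gamma subunit was lower as ATP5F1C in the baboon (-0.68) and as ATP5C1 in the rhesus monkey (-1.38), as was the rhesus delta subunit ATP5F1D (-1.51). The epsilon subunit ATP5F1E was higher in the baboon (0.76, adjusted p = 0.00016) and reached 0.40 in the rhesus monkey, where it did not pass (adjusted p = 0.20). ATP5IF1, the inhibitor of ATP synthase, was lower in both species (-0.60 and -1.07). ATP5MC1, ATP5MC2 and ATP5MC3 encode the same c-ring protein, and none of them passed in germ-like cells of either species, with values between -0.32 and -0.12.

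The species were fitted apart, and 47 symbols were tested in both. Of these, 17 were called higher in germ-like cells of the baboon and 10 in the rhesus monkey, with 9 shared (52.9% and 90% of each list), namely ATP5F1A, COX5A, NDUFA12, NDUFA9, NDUFAB1, NDUFB5, NDUFS4, NDUFS6 and NDUFV2. Lower calls were 4 in the first species and 7 in the second, and the 4 shared (100% and 57.1%) were ATP5IF1, COX8A, NDUFA11 and NDUFB8. Over all 7752 symbols tested in both, the shared higher calls came to 67.1% of the baboon and 82.8% of the rhesus list and the shared lower calls to 72.1% and 54.8%, so the members were not set apart by this overlap. No member symbol was called in opposite directions in the compared classes.

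**Figure D2:**
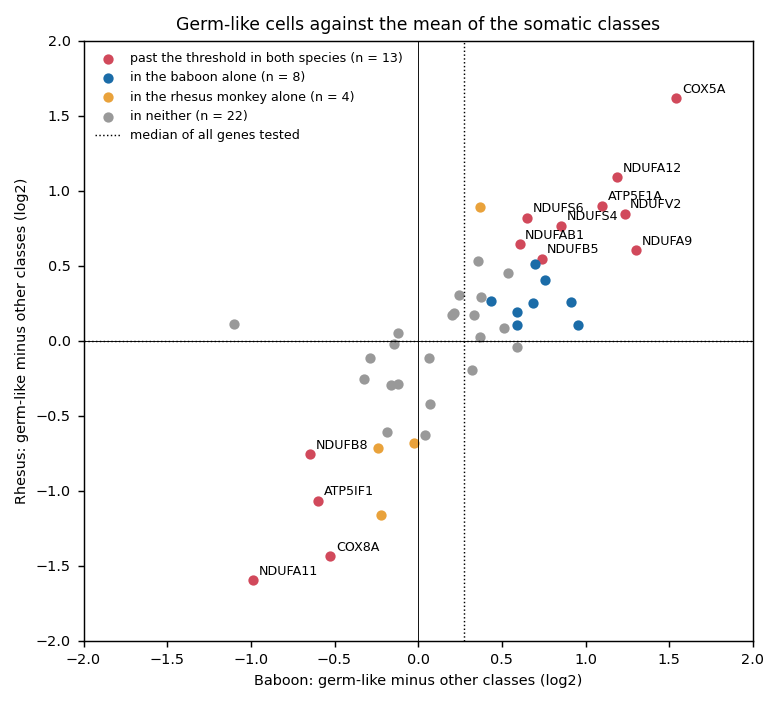
Log2 difference of germ-like cells from the mean of the somatic classes in the baboon (x axis) and the rhesus monkey (y axis) for the 47 symbols tested in both species; red points passed the threshold in both (n = 13), blue points in the baboon alone (n = 8), orange points in the rhesus monkey alone (n = 4) and grey points in neither (n = 22), and dotted lines mark the median of all genes. COX5A lies at the upper right (1.54 and 1.62), and NDUFA11 at the lower left (-0.98 and -1.60).

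The other genes of the pathway were described from fixed lists. Of the assembly factors of the complexes, 8 of 23 were higher and 3 lower in baboon germ-like cells, against 10 of 32 higher and 3 lower in those of the rhesus monkey, with NDUFAF5 (2.07 and 2.57) and NDUFAF6 (1.56 and 2.10) at the top in both. Of all genes, 30.1% and 24.2% were higher and 14.7% and 21.4% lower, so these shares lay near the background. Of the genes of mitochondrial biogenesis, 3 of 13 and 3 of 12 were higher, LRPPRC, which stabilizes mitochondrial transcripts, in both (1.00 and 1.60). Of the citric acid cycle and pyruvate dehydrogenase, 3 of 18 were higher and 2 lower in the first species, and 2 higher and 1 lower in the second, with fumarase FH higher in both (0.88 and 1.19). Among electron carriers and nucleotide exchangers, 5 of 14 and 4 of 14 were higher and 2 and 2 lower. Stress and immediate-early genes moved with the same classes, with 7 of 9 lower and 1 higher in baboon germ-like cells and 7 of 8 lower and 1 higher in the rhesus monkey. Summed, that list was at 4734 and 8335 CPM in baboon germ-like cells, and at 6608 to 36956 CPM in the other classes. Its rhesus sum was not low there, at 5548 and 4820 CPM against 3539 to 16569.6 CPM in the other classes, and its part in the differences was not tested.

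Sertoli-like cells, the nurse cells of the tubule, had 8 of 60 baboon members higher than the mean of the other classes and 1 lower, against 18.1% and 10.4% of all genes. For the rhesus monkey 9 of 69 were higher and 1 lower, against 14.5% and 6.92%. Calls in either direction were thus rarer among the members than among all genes. The single lower one was an isoform in both species, NDUFA4L2 in the baboon and COX4I2 in the rhesus monkey. NDUFA4L2 passed the filter only through the class in which it is high. The gamma subunit of ATP synthase led in both. As ATP5F1C it was at 372 and 415 CPM in baboon Sertoli-like cells and at 144 to 248 CPM in every other class (0.94, adjusted p = 0.00027). As ATP5C1 it was at 456 and 521 CPM in the rhesus monkey and at 108 to 435 CPM elsewhere (1.02, adjusted p = 0.00097). ATP5MF (0.91), NDUFB5 (0.76), NDUFS1 (0.71) and ATP5F1B (0.66) were further baboon members, and NDUFB9 (0.92), ATP5PF (0.80), SDHA (0.80) and NDUFB5 (0.78) further rhesus members. NDUFB5, NDUFB9 and NDUFS8 were called in both species, 3 of the 5 baboon and 6 rhesus calls among shared symbols.

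Stroma-like cells, fibroblast-like cells of the interstitium, were on the low side. In the baboon 10 of 60 members were lower, against 6.59% of all genes, and none was higher by edgeR, against 14.4%. In that direction 0 members had an unadjusted p under 0.05, and DESeq2 called 1. COX5A led (-1.16, adjusted p = 0.00012), and ATP5F1E (-0.97), NDUFS8, an iron-sulfur subunit of complex I (-0.95), NDUFS6 (-0.79) and NDUFAB1 (-0.71) followed. Without library 1A, 6 of 59 tested members were lower. In baboon 1, 29.6% of the stroma-like cells were marked as doublets. Of the rhesus members 4 were lower, against 3.05% of all genes, and 1 was higher, against 10.3%. UQCRQ, a small subunit of complex III, was at 156 and 56.9 CPM (-1.11), COX5A was at -0.85, NDUFS8 at -0.83 and NDUFS6 at -0.81. Without library 2A, COX5A (adjusted p = 0.051) and NDUFS8 (adjusted p = 0.054) no longer passed. Over 12 alternative settings COX5A kept its call in 8 and NDUFS8 in 10. The higher one was SDHD ENSMMUG00000015247 (0.67), whose call was kept in only 3 of 12 alternative settings and was lost, among others, without library 2A or 2B. COX5A, NDUFS6 and NDUFS8 were called lower in both species.

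Sertoli-like and stroma-like cells had the most cells, and they were set against each other directly. In the baboon 14 of 60 members were higher in Sertoli-like cells and 1 lower, against 16.3% and 17.3% of all genes. The lower one was NDUFA4L2, which passed the filter only through the class in which it is high. For the rhesus monkey 9 of 69 were higher, against 12.6%, and none lower by edgeR, against 11.9%, where 1 member had an unadjusted p under 0.05 in that direction and DESeq2 called 1. Without the block for the animal 3 baboon and 1 rhesus members were higher. Most members leaned the same way, 50 of 60 and 56 of 69 being above 0, with a median of 0.31 against 0.06 for all genes in the baboon and of 0.40 against 0.02 in the rhesus monkey. Of the members called higher in both species, NDUFS8 showed the widest gap, with 187 and 161 CPM in Sertoli-like and 87.3 and 56.3 CPM in stroma-like cells of the baboon (1.24, adjusted p = 0.00027). Its rhesus levels were 303 and 375 against 138 and 109 CPM (1.33, adjusted p = 0.0011). COX5A (0.94 and 0.96), NDUFB5 (0.97 and 0.95), NDUFS1 (0.91 and 0.88) and ATP5F1E (0.82 and 1.07) were called higher in both species. UQCRQ was at 302 and 231 against 156 and 56.9 CPM in the rhesus monkey (1.32, adjusted p = 0.0027).

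The core subunits SDHB (0.23 and 0.56) and ATP5F1B (0.63 and 0.71) did not pass between these classes in either species, while ATP5F1A passed in the baboon alone (0.68, against 0.78 with adjusted p = 0.085 in the rhesus monkey). The difference between the species was not tested. COX8C was called higher in rhesus Sertoli-like cells with only 33 and 9 UMIs there, at 3.79 and 1.12 CPM. Free RNA held COX8C at 7.00 CPM in rhesus 1 and at 3.02 and 0.713 CPM in the libraries of rhesus 2. The Sertoli-like level therefore does not stand clear of free RNA. Stroma-like cells were at 0.753 and 0.164 CPM, and the part of free RNA in this call was not tested. The stress and immediate-early list was lower in Sertoli-like cells for 5 of 9 genes in the baboon and 4 of 8 in the rhesus monkey. Of assembly factors, 3 of 23 and 5 of 32 were higher, NDUFAF5 in both (1.40 and 1.86).

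**Figure D3:**
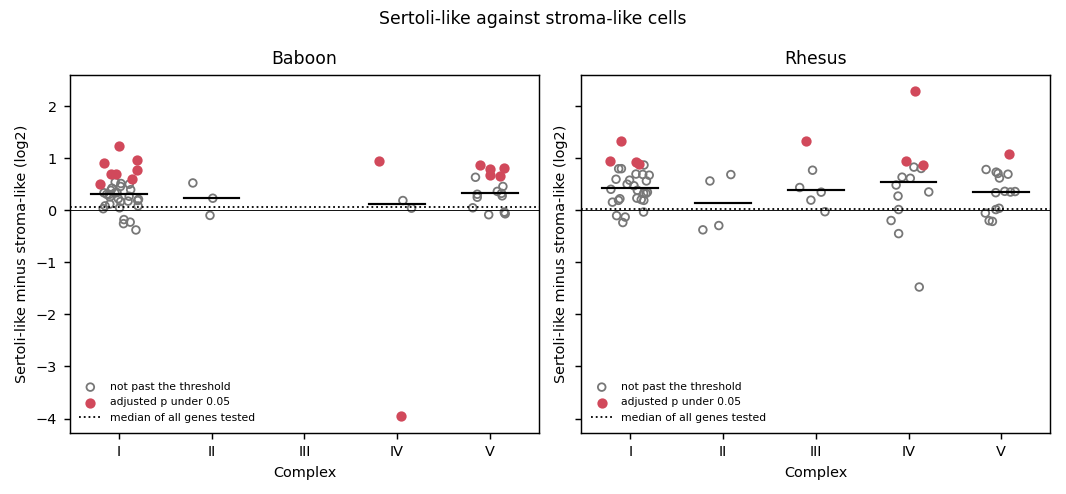
Log2 difference between Sertoli-like and stroma-like cells (y axis) of each tested subunit gene, by complex (x axis), in the baboon (left) and the rhesus monkey (right); filled red points passed an adjusted p of 0.05, black bars are the medians of the complexes and the dotted line is the median of all genes. Of the members, 50 of 60 and 56 of 69 lie above 0, and the low baboon point of complex IV is NDUFA4L2.

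Isoform genes gave the sharpest differences. COX4I2, the alternative form of subunit 4 of complex IV that is known to replace COX4I1 under low oxygen and in lung, was highest in pericyte-like cells, the contractile cells around small vessels. In the rhesus monkey, where it lies at chr10:66874716-66884048 of Mmul_10, it was at 2038 and 5945 CPM in pericyte-like cells (67 and 2494 UMIs from 22 and 257 cells), and next at 435 and 578 CPM in peritubular myoid-like cells. Germ-like cells held 103 and 133 CPM and endothelial-like cells 203 and 20.5 CPM. Every other class held 10.7 to 66.0 CPM, which does not stand clear of free RNA, at 39.5 CPM in rhesus 1 and 68.6 and 79.8 CPM in the libraries of rhesus 2. Pericyte-like cells were 4.68 and 10.3 times above peritubular myoid-like cells, and the log2 difference from the other classes was 6.04 (SE 0.44, adjusted p = 3.7e-08). Peritubular myoid-like cells were higher by 2.60 (adjusted p = 0.004), and Sertoli-like (-3.40) and Leydig-like cells (-2.66) were lower. The peritubular myoid-like cells also carried the pericyte list, at 2197 and 2298 CPM against 5717 and 5385 CPM in pericyte-like cells. Its part in their COX4I2 level was not tested.

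COX4I1, the common form, was at 821 and 715 CPM in the same pericyte-like cells and at 614 to 1617 CPM over all classes. Of the UMIs of both forms, COX4I2 therefore took 71.3% (exact 95% interval 61.0% to 80.1%) and 89.3% (88.1% to 90.4%) in pericyte-like cells, 28.2% and 39.6% in peritubular myoid-like cells and 7.21% and 10.3% in germ-like cells. In Sertoli-like cells it took 0.964% and 1.34%. These are shares of UMIs, not scaled to length. COX4I1 itself was higher in macrophage-like cells, with 1128 and 1617 CPM (0.94, adjusted p = 0.0099).

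NDUFA4, the complex IV subunit first assigned to complex I, and its relative NDUFA4L2, known as a target of the hypoxia factor HIF, formed the corresponding pair. In the baboon, where NDUFA4L2 lies at chr9:51724154-51727734 of Panubis1.0, it was at 352 and 417 CPM in pericyte-like cells (65 and 74 UMIs), 36.2 and 27.8 in endothelial-like, 8.87 and 9.14 in stroma-like and 0.547 and 0.636 CPM in Sertoli-like cells. Germ-like cells held 0 and 3 UMIs. Pericyte-like cells stood above all others and endothelial-like cells were second. The endothelial-like cells also carried the pericyte list, at 1543 and 581 CPM against 9407 and 6095 CPM in pericyte-like cells. Its part in their NDUFA4L2 level was not tested. Free RNA held 1.82 and 5.54 CPM in the libraries of baboon 1 and 14.4 CPM in baboon 2, so the stroma-like level of baboon 2 does not stand clear of it. Of the UMIs of both genes NDUFA4L2 took 41.1% in pericyte-like cells of either baboon and 0.124% and 0.153% in Sertoli-like cells. NDUFA4 stayed at 360 to 597 CPM in all baboon classes and did not pass in pericyte-like cells (0.28, adjusted p = 0.41).

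The picture of this pair was another in the rhesus monkey, where NDUFA4L2 had 0 UMIs in all cells. That count allows up to 0.345 and 0.373 CPM in Sertoli-like cells but up to 91.2 and 7.15 CPM in pericyte-like cells, both limits lying below the 352 and 417 CPM of the baboons. Whether the gene model catches its reads was not tested. NDUFA4 was at 365 and 164 CPM in rhesus pericyte-like cells, the lowest class mean (-1.94, adjusted p = 0.00075). It was highest in Leydig-like cells, which make steroids, at 1387 and 1230 CPM (1.73, adjusted p = 1.5e-05), and in peritubular myoid-like cells at 1348 and 1297 CPM (1.02, adjusted p = 0.017). Peritubular myoid-like cells exceeded pericyte-like cells 3.69 and 7.89 times.

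COX8C, an isoform of subunit 8 known from testis, was found in rhesus germ-like cells. It was at 269 and 295 CPM there (351 and 162 UMIs), against 3.79 and 1.12 CPM in Sertoli-like cells, a level that does not stand clear of free RNA. Peritubular myoid-, pericyte- and endothelial-like cells had 0 UMIs in both animals, which allows up to 65.2 and 20.2, 91.2 and 7.15, and 7.17 and 1.40 CPM, and all other classes had 9 UMIs or fewer except the Sertoli-like cells of rhesus 1. The common form COX8A went the other way, with 113 and 82.0 CPM in germ-like and 241 and 315 CPM in Sertoli-like cells. Its log2 difference from the mean of all somatic classes was -1.44 (adjusted p = 0.00033). Germ-like cells were the lowest class in each animal. Across the animals their levels overlapped with Leydig-like (147 and 93.3 CPM), stroma-like (194 and 108 CPM) and endothelial-like cells (251 and 111 CPM). COX8C thus took 70.3% and 78.3% of the UMIs of the pair in germ-like cells. In the baboon COX8A was lower in germ-like cells too (-0.52, adjusted p = 0.030), though its levels overlapped, at 147 and 139 CPM against 114 to 298 CPM. COX8C was not analysed there.

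The other isoform sets were sparse or even. COX6A2, the isoform of subunit 6A known from heart and muscle, had 45 and 3 UMIs in rhesus germ-like cells (34.4 and 5.47 CPM), which was 10.5% and 2.04% of the UMIs of COX6A2 and COX6A1. In each other class it had 0 to 6 UMIs. COX6B2, a testis form, had 5 and 4 UMIs in germ-like cells and 0 to 6 elsewhere. COX7A1 was highest in peritubular myoid-like cells, at 348 and 376 CPM, and took 37.2% and 39.7% of the UMIs of COX7A1 and COX7A2 there. Its share was about as high in pericyte-like (41.2% and 37.2%), Leydig-like (34.1% and 38.1%), stroma-like (35.1% and 35.5%) and macrophage-like cells (33.6% and 40%), and lower in Sertoli-like (19.7% and 22.6%) and germ-like cells (23.2% and 16.3%). No COX7B2 symbol was found.

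**Figure D4:**
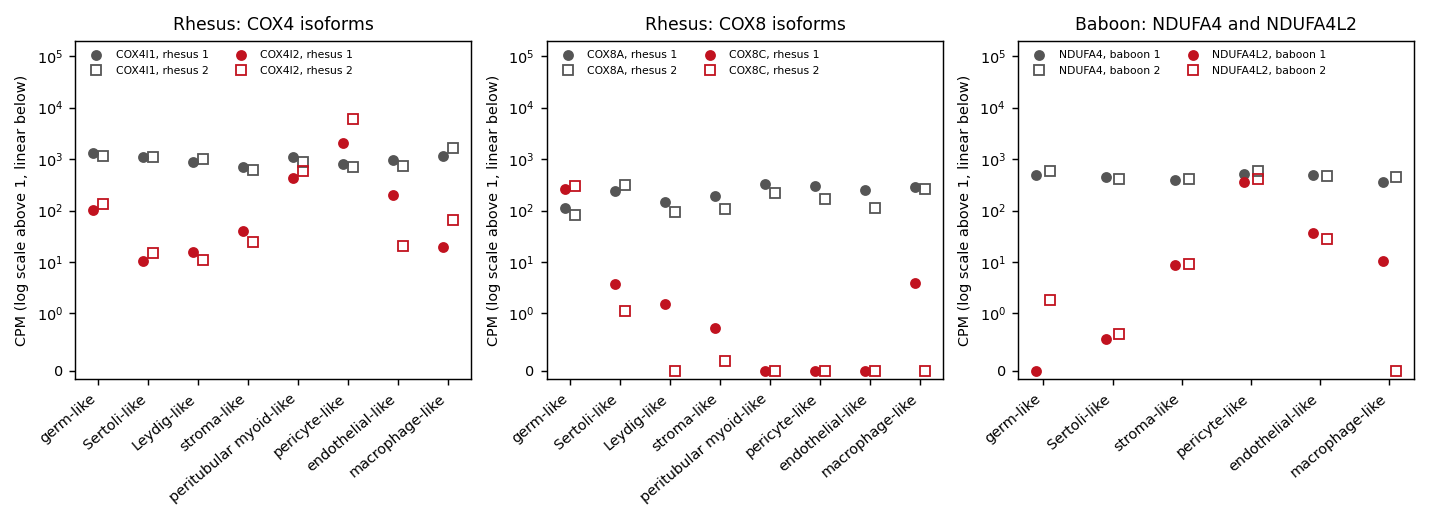
Level in CPM (y axis, log scale above 1 and linear below) of the common form (grey) and the alternative form (red) of 3 subunits in each class (x axis), circles for animal 1 and squares for animal 2, for COX4I1 and COX4I2 and for COX8A and COX8C in the rhesus monkey and for NDUFA4 and NDUFA4L2 in the baboon. COX4I2 exceeds COX4I1 in pericyte-like cells alone and COX8C exceeds COX8A in germ-like cells alone, whereas NDUFA4L2 comes near NDUFA4 only in pericyte-like cells.

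The smaller somatic classes had few further calls. Leydig-like cells of the rhesus monkey had 3 of 69 members higher and 1 lower, against 8.31% and 1.59% of all genes. Beside NDUFA4, the delta subunit ATP5F1D was at 451 and 633 CPM against 137 to 453 CPM elsewhere (1.36, adjusted p = 0.00033), and NDUFB5 was higher by 0.73. The NDUFB5 call was kept in only 6 of 12 alternative settings and was lost, among others, without library 2B. At 253 and 225 CPM, NDUFB5 was below its level in germ-like (374 and 368 CPM) and Sertoli-like cells (362 and 360 CPM). The lower one was COX4I2. The ribosomal protein genes of Leydig-like cells took 32.6% and 34.4% of the UMIs, the largest share of any class. The Leydig list took 41879 and 30020 CPM there. Although the subunits had a low share of UMIs in this class, their median log2 difference was 0.15, against -0.18 in stroma-like cells. The part of the ribosomal protein genes and of the Leydig list in these values was not tested. Peritubular myoid-like cells had 2 members higher, NDUFA4 and COX4I2, against 3.86%, and none lower by edgeR, against 0.4% (1 at an unadjusted p under 0.05, and 0 by DESeq2). Pericyte-like cells had 1 higher and 1 lower in each species. The higher ones were NDUFA4L2 in the baboon, against 6.86% of all genes, and COX4I2 in the rhesus monkey, against 3.44%. By the filter NDUFA4L2 had to differ, as stated above. The lower ones were NDUFB5 (-0.86) in the baboon, against 1.43%, a call lost without library 1A, and NDUFA4 in the rhesus monkey, against 0.147%.

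Endothelial-like cells had 2 baboon members higher, against 13% of all genes, and 3 lower, against 3.17%. NDUFA4L2, with the limit of the filter given above, and NDUFA8 (0.70) were the higher ones. The lower ones were ATP5MF (-0.64), NDUFS4 (-0.62) and NDUFS3 (-0.61). Whether the pericyte markers found in this class bear on the NDUFA4L2 call was not tested. Without library 1A, NDUFA8 and NDUFS3 no longer passed, and without library 1B NDUFS4 and NDUFS3 did not, leaving 1. In the rhesus monkey no member was higher by edgeR, against 13% (1 at an unadjusted p under 0.05, and 1 by DESeq2), and 2 were lower, against 3.89%. These were SDHA (-0.83) and NDUFS4 (-0.82), both of which lost their call without library 2A, where 1 member was lower. The rhesus 1 cells of this class carried all 10 lymphoid markers, at 3377 CPM, and the log2 differences in rhesus 1 alone were -0.51 and -0.54, against -0.96 and -0.92 in rhesus 2.

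Macrophage-like cells had 1 baboon member higher, NDUFA2 (0.65, adjusted p = 0.049), against 6.29% of all genes, a call lost without library 1B. None was lower by edgeR, against 1.53%, with 9 at an unadjusted p under 0.05 and 0 by DESeq2. Of the rhesus members 6 were higher, against 8.55%, and none lower by edgeR, against 1.36% (0 at an unadjusted p under 0.05 and by DESeq2). NDUFV3 (1.05), COX8A (1.01), NDUFA2 (0.96), COX4I1 (0.94) and ATP5F1E (0.82) led, with NDUFA1 at 0.77. Without library 2A, 3 were higher, NDUFV3 and ATP5F1E being among those lost, and NDUFA2 was lost without library 2B. ATP5F1E kept its call in 8 of 12 alternative settings. NDUFA2 was at 329 and 345 CPM in baboon and 337 and 405 CPM in rhesus macrophage-like cells, and was the member called in both species.

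**Figure D5:**
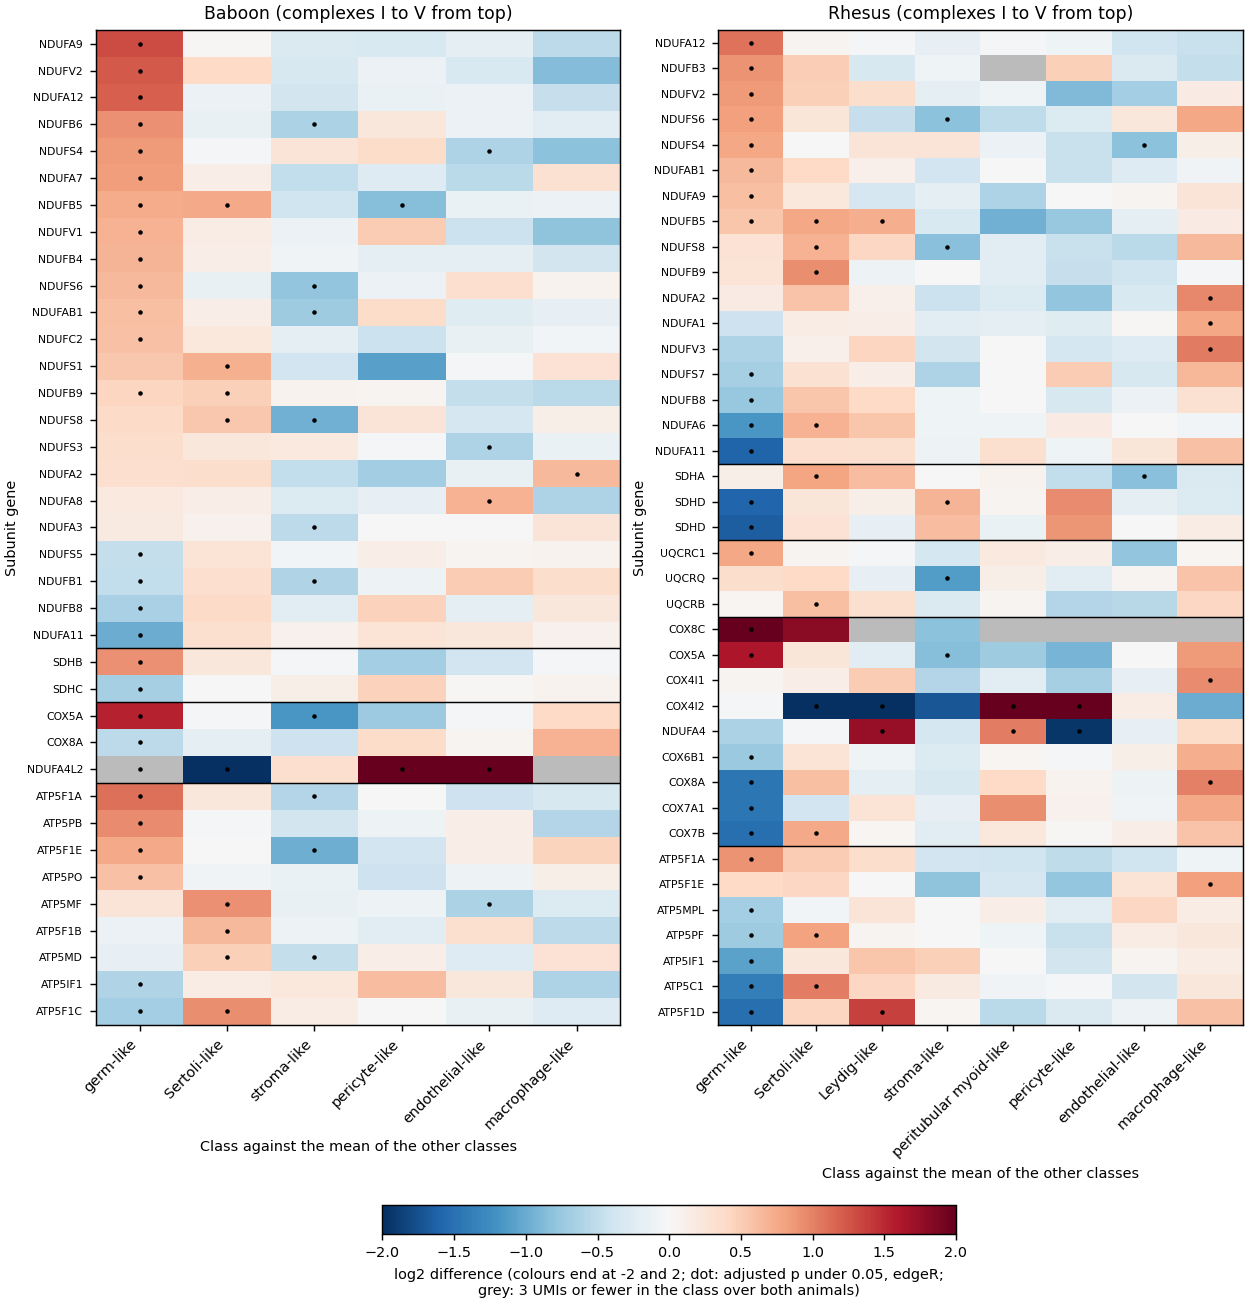
Log2 difference of each class from the mean of the other classes (columns) for each subunit gene called in at least 1 class (37 in the baboon and 39 rhesus entries; rows, complexes I to V from the top, divided by black lines, sorted by the germ-like value within each), in the baboon (left) and the rhesus monkey (right); red is higher and blue lower, colours end at -2 and 2, dots mark an adjusted p under 0.05 and grey cells had 3 UMIs or fewer in the class over both animals. The germ-like column holds the most dots in either species, and COX4I2 and NDUFA4L2 carry the darkest pericyte-like cells.

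The promoters of 3 rhesus members are shown: those of COX5A and NDUFA12 because both genes were high in germ-like cells, and that of COX4I1 beside them because it did not pass there. Each is the 300 bases before the gene's start in the RefSeq annotation of Mmul_10, read 5′ to 3′ on the gene's strand, with matches to the NRF1 motif (GCGCA and GCGC parted by 1 free base, bound by NRF1, a regulator of respiratory genes), CCGGAAG (ETS factors such as GABP) and TACGTG (hypoxia response) on either strand in capitals.
COX5A, chr7:51983910-51984209, strand -: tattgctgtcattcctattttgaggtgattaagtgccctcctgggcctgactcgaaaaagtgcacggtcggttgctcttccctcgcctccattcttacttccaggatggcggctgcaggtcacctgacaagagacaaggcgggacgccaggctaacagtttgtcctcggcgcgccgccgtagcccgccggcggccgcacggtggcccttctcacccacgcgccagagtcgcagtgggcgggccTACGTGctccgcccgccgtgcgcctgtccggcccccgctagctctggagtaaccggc
NDUFA12, chr11:94814451-94814750, strand -: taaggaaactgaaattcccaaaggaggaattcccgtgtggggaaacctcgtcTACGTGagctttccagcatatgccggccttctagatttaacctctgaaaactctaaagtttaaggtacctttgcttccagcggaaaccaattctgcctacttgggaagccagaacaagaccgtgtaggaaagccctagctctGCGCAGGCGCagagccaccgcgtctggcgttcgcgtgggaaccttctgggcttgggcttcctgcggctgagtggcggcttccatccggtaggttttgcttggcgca
COX4I1, chr20:72827673-72827972, strand +: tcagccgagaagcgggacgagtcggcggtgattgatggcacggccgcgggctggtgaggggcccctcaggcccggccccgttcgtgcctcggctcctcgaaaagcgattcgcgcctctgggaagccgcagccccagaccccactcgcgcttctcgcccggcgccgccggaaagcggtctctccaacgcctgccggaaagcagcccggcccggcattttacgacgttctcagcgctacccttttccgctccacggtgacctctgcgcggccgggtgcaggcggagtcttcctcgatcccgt
NDUFA12 held the NRF1 motif and TACGTG, COX5A held TACGTG, and COX4I1 held none of the 3 in this window. Of the 74 rhesus entries, 66 had a promoter under their symbol. The NRF1 motif was in 13 of these (19.7%) and in 4.75% of all 20787 promoters. Its form with T as the free base was in 1 (1.52%) against 0.953%. CCGGAAG was in 9 (13.6%) against 7.63%, and TACGTG in 7 (10.6%) against 3.37%, the latter being COX5A, NDUFA1, NDUFA12, NDUFA4, NDUFB7, NDUFS1 and NDUFV3. GGGCGG (45.5% against 45.6%) and CACGTG (4.55% against 7.32%) were not more frequent, and the median GC content was 56.0% against 56.7%. TACGTG differs from CACGTG in its first letter alone. NDUFA9, NDUFS6 and UQCRC1, which were high in germ-like cells, held the NRF1 motif. So did ATP5F1D and the SDHD entry on chromosome 14, which were low there. The SDHD entry on chromosome 13, also low there, did not hold it. A match is a description of the letters and not a site.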

How the data were processed

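The authors aligned the reads of each 10x Genomics 3′ library with Cell Ranger 3.1.0 to Panubis1.0 (baboon) or Mmul_10 (rhesus monkey) and deposited whole-number UMI counts per gene and barcode, for all barcodes and without normalization. Cells were called above a UMI cutoff (a 10th of the 99th percentile among the 5000 barcodes richest in UMIs), and below it from 500 UMIs on where the profile differed from free RNA at an adjusted p of 0.01. Cells with at least 200 genes were kept. Counts were normalized with sctransform 0.4.2 and integrated and clustered with Seurat 5.3.0 (3000 features, 30 components, resolution 0.5), and the member genes were left out of the clustering features. Clusters were named from marker lists by a scoring rule taken over from an earlier analysis of these data, so that a class may be named differently in the study. The members, gene lists and tests were chosen with earlier results of these data known.

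UMIs were summed per animal and class with at least 20 cells in each animal, both libraries of an animal together, so that n is 2 animals. Species were fitted apart in edgeR 4.0.16 by its quasi-likelihood test, after TMM scaling and filterByExpr and with the animal as a block, and p-values were adjusted by the Benjamini-Hochberg method over all genes tested. Each class was compared with the unweighted mean of the other classes, and Sertoli-like with stroma-like cells. The block was justified by the design, since every animal gave every class, and the deviations of an animal from the class means correlated between classes (r from 0.0924 to 0.648 over 15 pairs of classes in the baboon and from 0.0872 to 0.611 over 28 in the rhesus monkey). Alternatives were the size factors and the test of DESeq2 1.42.0, no filter, no block, libraries as samples, leaving out a library, no doublets, the UMI cutoff alone, resolutions of 0.3 and 0.8, members kept in the clustering, and no ribosomal protein genes. The scripts were tested on simulated data.

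The genes named were, in each comparison, the 5 members with the largest and the 5 with the smallest log2 difference among those past the threshold with the same direction in both animals, the members of the isoform sets, the core subunits and the 3 members with the most UMIs. Other members were named where a count of few rested on them or where both species called them. 1 core subunit and 1 promoter are not reported here. The unnamed clusters entered no test. A count of 0 allows up to 3 UMIs. Intervals are exact 95% Clopper-Pearson intervals and, like these limits, cover counting error only.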

Additional observations from a re-analysis of the deposited data

Results flagged for a closer look

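Droplets and clusters outside the comparisons also held UMIs of the subunits. Clusters without a name took 1.13% and 1.16% of their UMIs from them in the baboon (cluster 7, baboon 1 and 2). In the rhesus monkey the shares were 1.74% and 1.43% in cluster 4, 2.17% and 1.65% in cluster 11, and 2.59% and 1.49% in cluster 15, which had 3 and 54 cells in rhesus 1 and rhesus 2. In free RNA the shares were 1.81% (library 1A), 1.57% (1B) and 2.02% (baboon 2), and 2.34% (rhesus 1), 2.32% (2A) and 2.20% (2B). The cells of the same libraries had 1.60%, 1.62% and 1.57%, and 2.07%, 1.85% and 1.84%.

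NDUFA4 in pericyte-like cells was lower than the mean of the other classes in the rhesus monkey (log2 difference -1.94, adjusted p = 0.00075 by edgeR; -1.74 and -2.03 in the animals), whereas the baboon value was above 0 in both animals but did not pass (0.28, adjusted p = 0.41; 0.20 and 0.37). The other classes of the rhesus monkey include Leydig-like and peritubular myoid-like cells, which had the highest NDUFA4 levels. In the baboon neither had a cluster at the main resolution, and a Leydig-like one appeared at resolution 0.8. The baboon pericyte-like cells also carried the peritubular myoid list, at 3695 and 2546 CPM, and its part in their NDUFA4 level was not tested. The difference between the species was not tested. NDUFA4L2 had 65 and 74 UMIs in these cells of the baboons and 0 in the rhesus monkeys.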

How the results depend on the processing

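The alternatives were followed only for members named for the largest or smallest log2 differences past the threshold with the same direction in both animals. None of these changed direction under any alternative run, which that choice made likely. Core subunits, isoform members and the members with the most UMIs were not followed unless so chosen. Of 901 alternatives of the 76 followed results with the block, 846 kept the call and 55 the direction alone, and 48 results passed in all of theirs. Members called higher in germ-like cells numbered 11 in the baboon without a filter on low counts, against 19. In the rhesus monkey they numbered 24 with the size factors of DESeq2, 31 with its test, 30 with libraries as samples, 22 with members kept in the clustering and 26 without ribosomal protein genes, against 12. Baboon members called lower there were 14 with the UMI cutoff alone, against 9. Between Sertoli-like and stroma-like cells, 2 baboon members were higher with the UMI cutoff alone and 22 with libraries as samples, against 14, and 3 were lower with the test of DESeq2, 2 with libraries as samples and 2 without doublets, against 1. In the rhesus monkey 17, 28, 15, 35, 17 and 18 were higher with the size factors, the test of DESeq2, the UMI cutoff alone, libraries as samples, members kept and no ribosomal protein genes, against 9. There 1 was lower with the test of DESeq2, with libraries as samples, without a filter and without doublets, against 0. Calls over all somatic classes rose from 27 to 45 and 63 in the baboon and from 31 to 68 and 112 in the rhesus monkey with the test of DESeq2 and with libraries as samples. Libraries of 1 animal are not independent, and for the other settings the cause was not tested. Germ-like minus stroma-like shares of UMIs were 0.586 (UMI cutoff alone) and 0.838 (no ribosomal protein genes) percentage points in the baboon, against 0.713, and Sertoli-like minus stroma-like 0.307 and 0.583, against 0.419. In the rhesus monkey germ-like minus stroma-like was 0.820 without doublets, 0.844 without ribosomal protein genes and 0.698 to 0.827 when a library was left out, against 0.755. Of 120 class shares under alternatives, 95 lay within 1 SD of the main value. Stroma-like cells had the lowest share in every setting but resolution 0.8 and members kept in the baboon, where a Leydig-like cluster appeared. Leaving out baboon 2 or rhesus 1 leaves 1 animal, so only shares were recomputed.

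Without the block for the animal, 3 baboon members were lower in germ-like cells, 3 baboon and 1 rhesus members were higher in Sertoli-like than in stroma-like cells, and 9 and 12 were called over the somatic classes, while 43 of the 76 named results still passed. It turned the direction of none of these 76.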
